A study of Mus musculus with 194 samples.

Results

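The immediate early genes described here are Fos, Fosb, Jun, Junb, Egr1, Nr4a1, Ier2, Dusp1, Zfp36 and Atf3, taken by symbol as 10 of the 23420 rows of a single-cell expression table. Their levels were followed over 97 CD8+ T-cells and 81 L1210 cells whose sisters, cousins and hours since division had been recorded on a microfluidic chip. Zfp36 was the one member called for likeness of cells within lineages in both cell types. Between the cell types 7 of 10 members were called, a share near that of all genes (63.6%): Dusp1 was higher in CD8+ T-cells, and Atf3, Jun, Fos, Ier2, Fosb and Zfp36 were higher in L1210 cells. The calls of Ier2 and Zfp36 were lost when the number of detected genes was held fixed, and Fos, Fosb and Atf3 passed the filter on low values only through L1210 cells, where they were high. No member changed with hours since division past the threshold in either cell type. Of all genes, only 0.09% did in CD8+ T-cells and 0 did in L1210 cells.

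The CD8+ T-cells came from the spleens of young to adult C57BL/6J mice of mixed sex. They were activated in vitro with plate-bound anti-CD3 and soluble anti-CD28 and then grown in the device with IL2. The L1210 cells are a mouse lymphocytic leukemia line (DBA subline 212) that was grown in the device without activation or added cytokine. Cells of both groups were grown in traps over the divisions that define sister and cousin pairs, flushed out singly in PBS, lysed and made into Smart-Seq2 libraries. No untreated, resting or unstimulated group was among the samples, so the levels are those of proliferating cells. The labels do not say which mouse gave which CD8+ T-cell, and the leukemia cells are 1 line, so mouse, strain, culture medium and cell type cannot be told apart.

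Immediate early genes are transcribed within minutes of a signal, from regulators already present in the cell, and their transcripts are short-lived. Mitogen-activated protein kinases relay growth factor, antigen receptor or stress signals to serum response factor with its ternary complex partners and to CREB. In T-cells, ligation of the antigen receptor and CD28 is a classic inducer of these genes. Fos, Fosb, Jun and Junb encode subunits of the dimeric transcription factor AP-1, and Atf3 encodes a stress-induced member of the same bZIP superfamily. Egr1 encodes a zinc finger transcription factor and Nr4a1 the orphan nuclear receptor Nur77. Dusp1 encodes a phosphatase that inactivates mitogen-activated protein kinases, Zfp36 encodes tristetraprolin, which speeds the decay of AU-rich mRNAs, and Ier2 encodes a nuclear protein.

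Expression was given in TPM, a relative transcript abundance that scales reads by transcript length and sums to 1000000 in each library, and was analysed as ln(TPM + 1). The CD8+ T-cells fell into 34 lineages and the L1210 cells into 26, where a lineage is the retained progeny of 1 founding cell. A library held 2639 to 10905 genes above 0 TPM in CD8+ T-cells (median 6862) and 1610 to 10454 in L1210 cells (median 8402). Read counts were not in the table, and an exact 0 can be a missed transcript. The paper reports an average read depth and lists quality metrics for each library, which were not used here. The cell types matched their labels: the 5 T-cell markers summed to 394.7 to 5350 TPM in CD8+ T-cells and to 0 to 38.4 TPM in L1210 cells, in which Cd3e and Cd3g were at 0 throughout. The 7 B lineage markers summed to 484.9 to 4863 TPM in L1210 cells and to 0 to 282.6 TPM in CD8+ T-cells, in which Pax5, Ebf1, Vpreb1 and Igll1 were at 0 throughout while Cd79b was above 0 in 47 cells and Cd79a in 10. In L1210 cells, Cd8b1 was above 0 in 23 cells and Cd8a in 10. The 10 myeloid markers summed to at most 83.5 TPM in CD8+ T-cells and 179.7 TPM in L1210 cells, where Lyz2 was above 0 in 36 cells and Cd14 in 41, and their part in the results was not tested. The CD4 and NK cell markers (4 genes) reached at most 42.3 TPM in any cell. The erythroid and platelet markers (4 genes) summed to at most 57.2 TPM in CD8+ T-cells and 328 TPM in L1210 cells. Among them Pf4 was above 0 in 39 L1210 cells and at 0 in every CD8+ T-cell.

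Ier2 had a lower p than Fos in limma's test of lineage in L1210 cells, but no promoter sequence was found for it. Promoters are shown for Zfp36, called for lineage likeness in both cell types, and for Fos, called in L1210 cells. They are the 250 bases before the annotated start, in RefSeq's GRCm38.p6 annotation, 5′ to 3′ on the strand of the gene, and capitals mark a match to a searched motif. Zfp36 lies on chromosome 7 (chr7:28376784-28380253, minus strand) and its promoter window is chr7:28379229-28379478. The gene interval is from GENCODE and the window is counted from a RefSeq start inside it, so the window lies within the interval. Fos lies on chromosome 12 (chr12:85473890-85477273, plus strand) and its window is chr12:85473640-85473889.
Zfp36 promoter: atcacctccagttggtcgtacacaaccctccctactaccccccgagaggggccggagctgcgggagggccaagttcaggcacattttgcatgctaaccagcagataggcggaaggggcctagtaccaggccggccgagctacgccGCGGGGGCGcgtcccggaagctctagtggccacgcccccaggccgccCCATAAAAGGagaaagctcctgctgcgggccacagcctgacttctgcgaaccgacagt
Fos promoter: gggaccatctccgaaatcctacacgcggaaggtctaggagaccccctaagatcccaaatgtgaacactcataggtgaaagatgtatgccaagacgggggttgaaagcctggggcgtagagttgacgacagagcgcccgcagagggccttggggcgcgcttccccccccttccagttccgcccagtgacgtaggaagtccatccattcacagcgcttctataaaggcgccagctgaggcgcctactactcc
The motifs were searched on both strands: the CArG box of serum response factor, the CREB motif TGACGTCA, the AP-1 motif TGANTCA and the EGR motif GCGNGGGCG. The Zfp36 window held a CArG box at -58 to -49 and an EGR motif at -105 to -97, counted from the annotated start, and these 2 motifs did not overlap. The Fos window held none of these letter patterns. Near matches and bases outside the window were not searched, so this does not show that Fos lacks such sites. A CArG box was in 1.47% of 32851 promoter windows of this length, TGACGTCA in 1.55%, TGANTCA in 6.75% and GCGNGGGCG in 4.7%. Of the 8 members in the sequence table, Zfp36 held a CArG box, Dusp1 held TGACGTCA, and Fosb, Nr4a1 and Zfp36 held the EGR motif. A match is a description of the sequence, not a measured binding site.

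In CD8+ T-cells, Ier2 and Junb were the most abundant members and were found in nearly every cell. Ier2 ran from 0 to 588.33 TPM with a median of 72.7 TPM and was above 0 in 88 of 97 cells (90.7%, exact binomial 95% interval 83.1% to 95.7%). Junb ran from 0 to 489.33 TPM with a median of 66.2 TPM and was above 0 in 90 cells. Their lineage means were 3.92 ± 1.10 and 3.96 ± 1.04 on the ln(TPM + 1) scale (SD, n = 34 lineages). These means lay closer together than either SD, and their difference within lineages was not tested. Zfp36 came next, from 0 to 200.8 TPM with a median of 13.2 TPM, above 0 in 81 cells. Dusp1 ran from 0 to 405.73 TPM with a median of 5.23 TPM and was above 0 in 59 cells. Jun ran from 0 to 108.93 TPM with a median of 4.19 TPM and was above 0 in 64 cells. The lineage means of Zfp36 (2.43 ± 1.28), Dusp1 (1.96 ± 1.31) and Jun (1.63 ± 1.19) lay within 1 SD of each other (ln scale, n = 34 lineages).

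The other members were at 0 in most CD8+ T-cells. Egr1 was above 0 in 23 cells and reached 180.11 TPM, and Nr4a1 was above 0 in 13 cells and reached 43.7 TPM. Fos was above 0 in 8 cells (8.25%, interval 3.63% to 15.6%) and reached 60.19 TPM. Atf3 was above 0 in 7 cells and reached 125.59 TPM. Fosb was listed at 0 in all 97 cells, and a limit of 3 cells allows a share listed above 0 of up to 3.09%, which is no limit on the share that expressed it. These intervals and limits cover counting of cells only, and cells of a lineage are not independent.

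By median TPM, the order in L1210 cells began in the same way, with Ier2, then Junb. Ier2 ran from 0 to 1018.82 TPM with a median of 148.4 TPM and was above 0 in 78 of 81 cells (96.3%, interval 89.6% to 99.2%). Junb ran from 0 to 451.43 TPM with a median of 92.4 TPM and was above 0 in 77 cells. Zfp36 (median 25.6 TPM, highest 396.72 TPM) was above 0 in 72 cells and Jun (median 23.4 TPM, highest 287.33 TPM) in 71 cells. Their lineage means, 3.21 ± 1.33 and 3.01 ± 1.12 on the ln scale (SD, n = 26 lineages), lay closer together than either SD. The difference within lineages was not tested. Atf3 was above 0 in 56 cells (69.1%, interval 57.9% to 78.9%), with a median of 11.1 TPM and a highest value of 112.96 TPM. The remaining 5 members had a median of 0: Fos was above 0 in 31 cells, Dusp1 in 23, Egr1 in 22, Fosb in 21 and Nr4a1 in 8. The highest values were 283.72 TPM for Fos and 67.81 TPM for Fosb, both in library L1210_51.

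**Figure D1:**
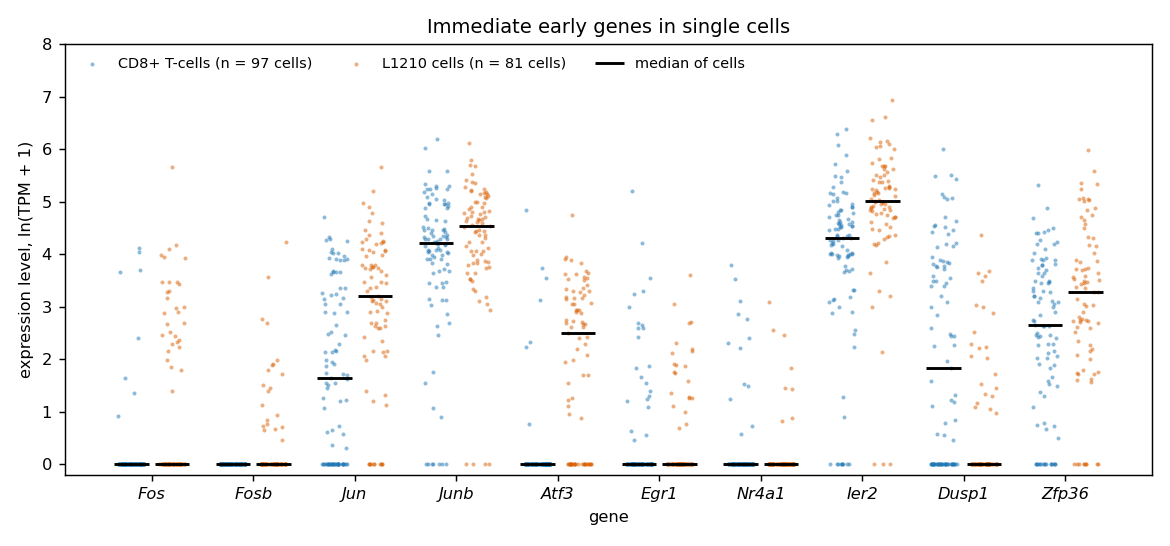
Levels of the 10 immediate early genes in single cells, as ln(TPM + 1) on the vertical axis; each point is a cell (blue, 97 CD8+ T-cells; orange, 81 L1210 cells) and each black bar is the median of cells. Ier2 and Junb form the highest clouds in both cell types, Fosb lies at 0 in every CD8+ T-cell, and Atf3 has a median of 0 in CD8+ T-cells and 11.1 TPM in L1210 cells.

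Cells carried a median of 4 members above 0 TPM in CD8+ T-cells (range 0 to 9) and 5 in L1210 cells (range 1 to 10). The number rose with the number of detected genes. Spearman's rho between them was 0.556 over 97 CD8+ T-cells and 0.657 over 81 L1210 cells, where both measures come from the same library. Cells with 8 or more members numbered 4 in CD8+ T-cells, in 3 lineages, and 12 in L1210 cells, in 9 lineages. For single members, the rho with detected genes was highest for Nr4a1 (0.379) and Junb (0.378) in CD8+ T-cells and for Atf3 (0.336) and Egr1 (0.302) in L1210 cells.

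The first comparison asked how the members differed between activated T-cells and the leukemia line. It used the mean of ln(TPM + 1) in each lineage, so that a lineage counts once, and limma across 11373 genes with Benjamini-Hochberg adjustment, and a gene was called at an adjusted p under 0.05. The cell types differed widely: 63.6% of all genes tested were called, 13.5% as higher in CD8+ T-cells and 50.1% as lower, and the median difference of all genes was -0.41. Of the 10 members, 7 were called, 1 as higher and 6 as lower in CD8+ T-cells, which is close to the background, and their median difference was -0.59. With the number of detected genes as a covariate, the median of all genes moved to -0.15 and the share of calls that were higher in CD8+ T-cells from 21.3% to 37.3%.

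Dusp1 was the only member called as higher in CD8+ T-cells. Its lineage means ran from 0 to 5.47 in CD8+ T-cells (median 1.93) and from 0 to 3.49 in L1210 cells (median 0.69), so the groups overlapped. The difference was 1.16 on the ln scale (SE 0.291, 95% interval 0.58 to 1.74, adjusted p = 0.000459, limma), a 3.20-fold higher level on the TPM + 1 scale. Only 4.09% of genes tested had a more positive difference. Dusp1 lies on chromosome 17. Its call held in all 15 alternative settings, including the fit with detected genes as a covariate.

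The AP-1 members were lower in CD8+ T-cells or not called. Jun, on chromosome 4, had lineage means of 0 to 4.31 in CD8+ T-cells (median 1.68) and 0 to 4.97 in L1210 cells (median 3.12) and differed by -1.39 (SE 0.292, adjusted p = 4.08e-05, limma). Atf3, on chromosome 1, had lineage means with a median of 0 for CD8+ T-cells and 1.98 for L1210 cells and differed by -1.70 (SE 0.217, adjusted p = 3.54e-10, limma), a level 5.46-fold higher in L1210 cells. Most CD8+ T-cell lineages were at 0 for Atf3, and 1 reached 4.04. Fos differed by -0.98 (SE 0.221, adjusted p = 0.000116, limma), from lineage means of 0 to 2.46 against 0 to 3.48. Fosb, on chromosome 7, was at 0 in all 34 CD8+ T-cell lineages and above 0 in 13 of 26 L1210 lineages, and its call (adjusted p = 0.000184, limma) was against cells listed at 0, so no fold is given. Its difference of -0.41 was close to the median of all genes. Junb, on chromosome 8, differed by -0.35 (95% interval -0.82 to 0.13, adjusted p = 0.199, limma), which did not pass. Fos, Fosb and Atf3 entered the test only through their levels in L1210 cells, and Nr4a1 only through CD8+ T-cells.

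Ier2, also on chromosome 8, was 2.72-fold higher in L1210 cells on the TPM + 1 scale (95% interval of the ln difference -1.52 to -0.48, SE 0.261, adjusted p = 0.000708, limma), with lineage means of 1.28 to 5.58 against 2.16 to 6.30. Its call was lost when detected genes were a covariate (adjusted p = 0.0811) and when the share of cells above 0 TPM was compared (adjusted p = 0.357). Zfp36 differed by -0.78 (SE 0.322, adjusted p = 0.0308, limma), with lineage means of 0 to 4.23 against 0.40 to 5.67. That call was lost in 6 of 15 alternative settings (adjusted p over all 15 from 0.00597 to 0.523) and when any of 5 single L1210 lineages was left out (adjusted p up to 0.0572), which are those of L1210_41, L1210_46, L1210_53, L1210_63 and L1210_78. Egr1, on chromosome 18, differed by -0.03 (95% interval -0.36 to 0.29, adjusted p = 0.864, limma). Nr4a1, on chromosome 15, differed by 0.15 (interval -0.14 to 0.44, adjusted p = 0.365, limma). Neither passed, and both were at 0 in most cells of both groups.

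**Figure D2:**
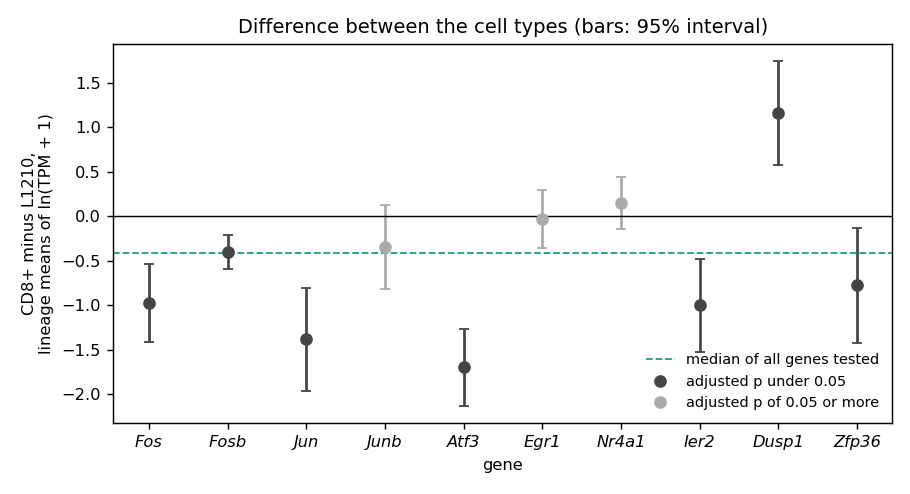
Difference between the cell types for each member, CD8+ minus L1210, in lineage means of ln(TPM + 1) (34 and 26 lineages); points are limma estimates, bars 95% intervals, dark points have an adjusted p under 0.05 and the dashed line is the median of all genes tested (-0.41). Dusp1 lies above 0 at 1.16, and Atf3 (-1.70) and Jun (-1.39) lie farthest below.

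Genes around the members in the same pathways were taken from lists of textbook members. Among all genes, 63.6% were called, 13.5% as higher and 50.1% as lower in CD8+ T-cells, and 49.7% were called with detected genes as a covariate. The share called was 70.6% for the upstream kinases and factors and 62.5% for the other early response genes, both near that of all genes. Among 12 tested AP-1 and bZIP partners outside the members, 3 were called as higher and 7 as lower in CD8+ T-cells, and with detected genes as a covariate 3 and 2. Batf3, a BATF-family partner of Jun proteins, was higher by 1.42 and Atf2, a CREB-family activator, was lower by 0.93 (difference -0.93). Batf3 was above 0 in 2 L1210 cells and entered the test only through CD8+ T-cells. Fosl1, which encodes the Fos-related Fra-1, was above 0 in 22 CD8+ T-cells against 1 L1210 cell. All 9 feedback phosphatases and inhibitors of the ERK pathway were called as lower in CD8+ T-cells, against 50.1% of all genes, and 7 of 9 remained called with detected genes as a covariate. They were led by Dusp6 (difference -3.90, SE 0.253), an ERK phosphatase with medians of 0 TPM in CD8+ T-cells and 191.0 TPM in L1210 cells, and by Dusp4 (-2.86, SE 0.189). In CD8+ T-cells 7 of these 9 passed the filter on low values, so the others entered the test only through L1210 cells, where they were higher. Spry2 was above 0 in 4 CD8+ T-cells and Spred1 in 12. Dusp1 was opposite in sign to this list, which holds ERK inhibitors as well as phosphatases. Of 17 upstream kinases and factors, 0 were called as higher and 12 as lower, led by the ternary complex factor Elk3 (-1.98) and the JNK gene Mapk8 (-1.32). With detected genes as a covariate those counts became 1 and 7.

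Of 24 other early response genes tested, 3 were called as higher in CD8+ T-cells and 12 as lower, and with detected genes as a covariate 3 and 7. The higher ones were Klf6 (1.42, SE 0.239), Btg1 (1.04, SE 0.225) and Klf2 (0.75, SE 0.201). Klf2, above 0 in 6 L1210 cells, entered the test only through CD8+ T-cells, where it was higher. The lower ones included Pim1 (-2.83, SE 0.243), a survival kinase, and Trib1 (-1.77, SE 0.173), a pseudokinase. They also included Rhob (-1.33, SE 0.159), a small GTPase, and Ppp1r15a (-1.83, SE 0.239), which restores translation after stress. Rhob was above 0 in 11 CD8+ T-cells and Trib1 in 12. Of the 24 genes, 21 passed the filter on low values among the T-cells and 23 among the leukemia cells. The rest of each count entered through the other cell type alone. Of the EGR and NR4A paralogs and their corepressors, 4 of 7 were tested, and Nab2 was higher by 0.47 (SE 0.142) while Nab1 (-0.59, SE 0.182) and Egr2 (-0.45, SE 0.186) were lower. Nab2, above 0 in 4 L1210 cells, entered the test only through CD8+ T-cells. Egr2, above 0 in 8 CD8+ T-cells, entered only through L1210 cells. With detected genes as a covariate 2 were called as higher and 0 as lower, so the calls of Nab1 and Egr2 were lost. Egr4 was at 0 in every cell of both groups.

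Co-expression across single cells was described within each cell type, over different sets of members. It was measured by Spearman's rho over cells for the members that passed the filter on low values, ln(TPM + 1) above 1 in more than 10% of the cells of that type, as 7 members did for CD8+ T-cells and 9 for L1210 cells. In CD8+ T-cells the 21 pairs had a median rho of 0.119, where all gene pairs had 0.0848, and 4 pairs passed the 90th percentile of all pairs (0.251). In L1210 cells the 36 pairs had a median of 0.205, where all gene pairs had 0.0912, and 15 passed the 90th percentile (0.247). The points are cells that share lineages and differ in depth, so no p is given.

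The highest pair in L1210 cells was Ier2 with Zfp36 (rho 0.543), both above 0 in 71 of 81 cells. Junb went with Ier2 (0.490) and with Zfp36 (0.418), and Fos with Zfp36 (0.444) and Egr1 (0.387). Ier2, Zfp36 and Junb therefore formed a group in which all 3 pairs were above 0.4, chosen here after the values were seen. Atf3, the stress-induced member, went mainly with Jun (0.334). Dusp1 and Junb had a rho of -0.02. In CD8+ T-cells the highest pair was Egr1 with Nr4a1 (0.383), which were above 0 together in 8 cells, and the next was Jun with Dusp1 (0.274). Ier2 with Zfp36 had a rho of 0.10 in CD8+ T-cells. The difference between the cell types was not tested.

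Once the number of detected genes was held fixed, the median over the pairs was 0.097 for CD8+ T-cells and 0.198 for L1210 cells, against 0.0106 and 0.0287 for all gene pairs. After lineage means were subtracted, it fell to 0.0374 and 0.107, against 0.0566 and 0.058 for all gene pairs, in the 90 and 79 cells whose lineages held at least 2 cells. Within lineages, 0 pairs of CD8+ T-cells and 6 pairs of L1210 cells passed the 90th percentile of all pairs. Within L1210 lineages the rho of Ier2 with Zfp36 was 0.411, that of Junb with Zfp36 0.368 and that of Junb with Ier2 0.305, each below its value over all cells, and Fos with Zfp36 had 0.145.

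**Figure D3:**
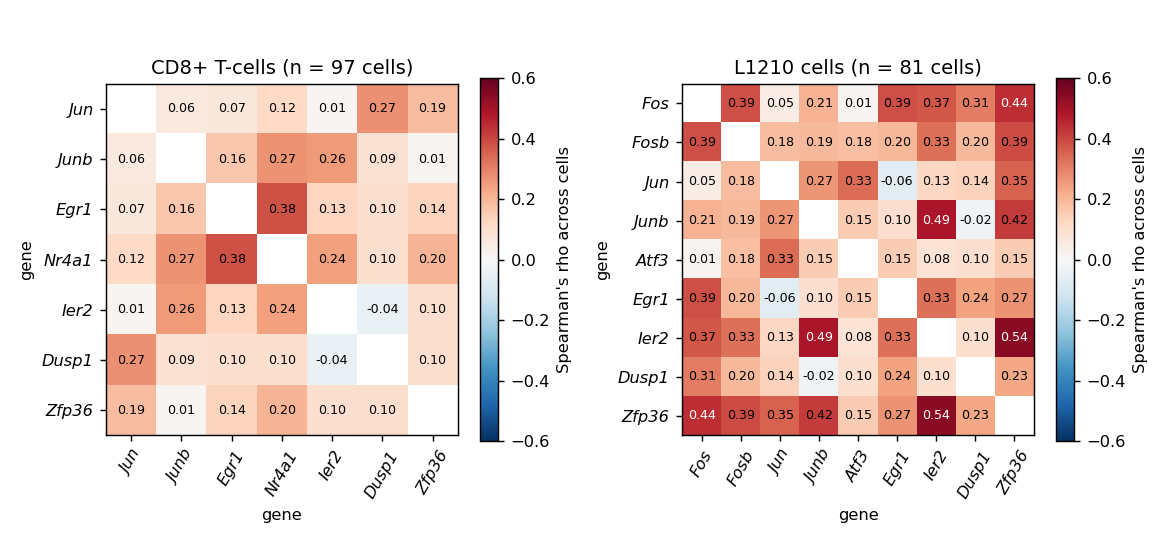
Spearman's rho across cells for every pair of members that passed the filter on low values, in 97 CD8+ T-cells (left, 7 genes) and 81 L1210 cells (right, 9 genes); red marks positive and blue negative values on a common scale. The darkest cell is Ier2 with Zfp36 in L1210 cells (0.543), and in CD8+ T-cells it is Egr1 with Nr4a1 (0.383).

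The genes outside the members whose pattern was most like the members' mean level were named in each cell type by the same rho. In L1210 cells they were 1500012F01Rik (0.566), Egr2 (0.525), 2410006H16Rik (0.518), Dbnl (0.508) and Nfkbiz (0.504), over 81 cells. Egr2 is the zinc finger paralog of Egr1 and Nfkbiz encodes an inducible regulator of NF-kB. In CD8+ T-cells they were Zfp97 (0.528), Eftud2 (0.509), Ing3 (0.503), Vav1 (0.501) and Wdr43 (0.496), over 97 cells, and none of these 5 was on the early response lists. The members' mean level had a rho of 0.43 with detected genes over CD8+ T-cells and 0.361 over L1210 cells.

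The second comparison asked whether the members changed with the hours elapsed since a cell's last division, a measure of progress through the cell cycle. Recorded times ran from 0.5 to 9.475 h in 94 CD8+ T-cells of 31 lineages and from 0.354 to 12.8 h in 81 L1210 cells of 26 lineages. A slope of the lineage mean on the lineage's mean time was fitted in each cell type with limma. Of all genes tested, 0.09% were called in CD8+ T-cells (9 of 9997) and 0 in L1210 cells, where 12.9% and 5.58% had an unadjusted p under 0.05, so few genes of any kind passed at this number of lineages. No member was called in either cell type (0 of 7 and 0 of 9).

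Jun had the steepest slope of the members in CD8+ T-cells. Lineage means of Jun ran from 0 to 4.31 (median 1.94) in the 9 lineages under 3 h, from 0.16 to 4.14 (median 2.06) in 13 lineages from 3 to 6 h, and from 0 to 2.50 (median 0.77) in 9 lineages from 6 h, and these ranges overlapped. The slope was -0.22 per hour (SE 0.0833, 95% interval -0.39 to -0.05, unadjusted p = 0.0115, adjusted p = 0.264, limma). Dusp1 had a slope of -0.18 per hour (interval -0.36 to 0.01, adjusted p = 0.412, limma), with a median of 2.08 under 3 h, 2.45 from 3 to 6 h and 1.74 from 6 h. Zfp36 had a slope of 0.09 per hour (interval -0.11 to 0.28, adjusted p = 0.733, limma). The slopes of Junb, Ier2, Nr4a1 and Egr1 lay between -0.09 and 0.01 per hour. Detected genes were not held fixed in these values, and with them as a covariate 0 members were called.

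In L1210 cells the intervals were narrower. Dusp1 had the largest slope, 0.08 per hour (interval -0.01 to 0.17, unadjusted p = 0.075, adjusted p = 0.853, limma), with medians of 0 under 3 h, 0.75 from 3 to 6 h and 1.09 from 6 h. Zfp36 followed with 0.07 per hour (interval -0.06 to 0.19, adjusted p = 0.865, limma). Egr1 had a slope of 0.04 per hour and Jun one of 0.00 per hour (9.8e-05, interval -0.11 to 0.11). The largest difference in slope between the cell types was that of Dusp1, -0.26 per hour (SE 0.0997, interval -0.45 to -0.06), with an unadjusted p of 0.0127 and an adjusted p of 0.363 in limma's interaction test. The interaction test called 0.00879% of all genes, 10.8% had an unadjusted p under 0.05, and 0 of 10 members were called.

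**Figure D4:**
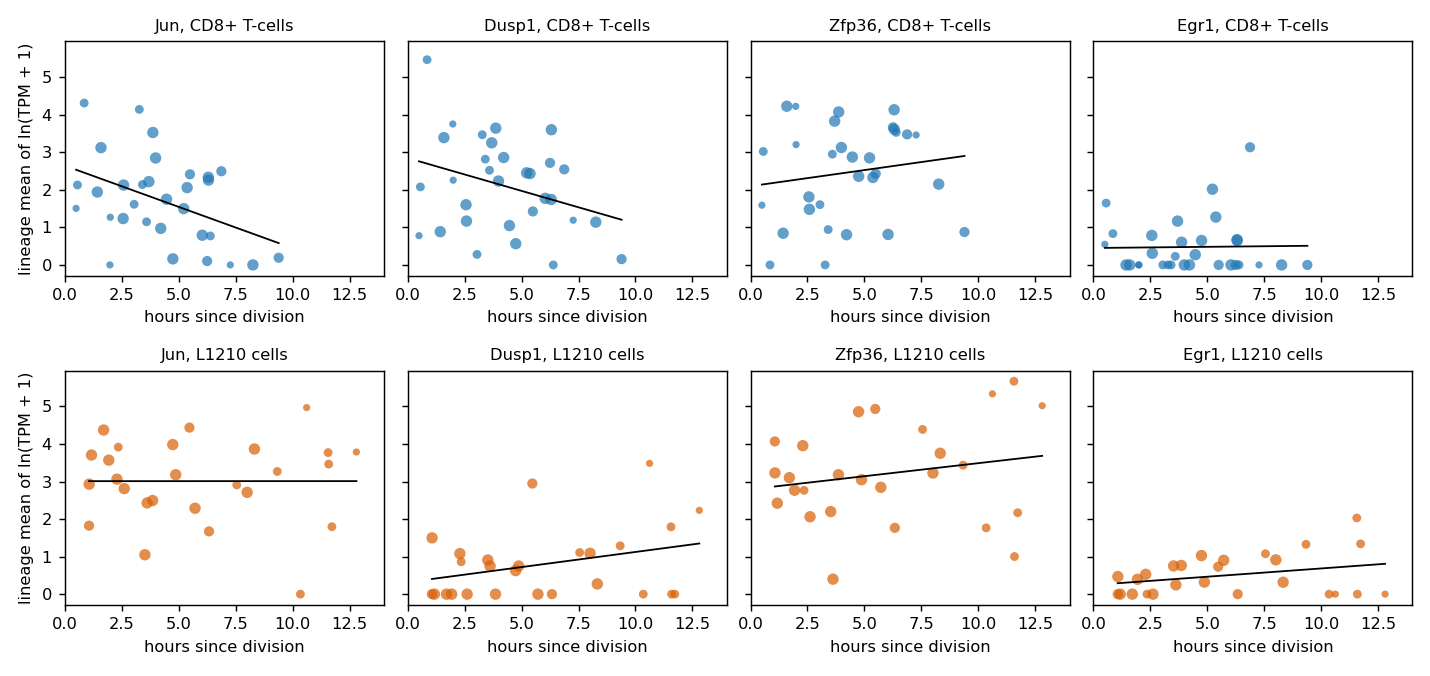
Lineage means of ln(TPM + 1) against mean hours since division for Jun, Dusp1, Zfp36 and Egr1, in CD8+ T-cells (top, 31 lineages) and L1210 cells (bottom, 26 lineages); larger points hold more cells and lines are limma slopes. The Jun line falls by 0.22 per hour in CD8+ T-cells and is flat in L1210 cells, and no slope has an adjusted p under 0.05.

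The third comparison asked whether cells of a lineage were more alike than cells of different lineages. The effect was the intraclass correlation (ICC), the share of the variance of ln(TPM + 1) that lies between lineages, and the test was limma's moderated F-test of lineage. It used 90 CD8+ T-cells in 27 lineages and 79 L1210 cells in 24 lineages. Of all genes, 12.9% were called for CD8+ T-cells and 13.4% for L1210 cells, and without the lineage of L1210_8 the L1210 calls fell from 1417 to 506. Of the members, 2 of 7 were called in CD8+ T-cells and 4 of 9 in L1210 cells. Cells of a lineage were also grown in the same lane and released together, so descent and shared handling cannot be told apart.

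Zfp36 was called in both cell types, in all 13 alternative settings in CD8+ T-cells and all 14 in the L1210 line. In CD8+ T-cells its ICC was 0.547 (adjusted p = 4.17e-05, limma), with 0.52% of genes tested having a higher one, and in L1210 cells it was 0.432 (adjusted p = 0.00126, limma), with 2.46% higher. Lineages differed in plain levels, in examples chosen after the values were seen. The 4 cells CD8_87 to CD8_90 ran from 48.53 to 131.41 TPM and the 4 cells CD8_38 to CD8_41 from 36.95 to 80.2 TPM, whereas CD8_13 and CD8_15 were both at 0, as were CD8_36 and CD8_42. The 4 cells of lineage CD8_44 ran from 0 to 5.26 TPM. Zfp36 was thus above 0 in every cell of 16 CD8+ T-cell lineages, at 0 in every cell of 2 and mixed in 9.

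In L1210 cells, the 4 cells of the lineage of L1210_53 held 108.85 to 150.6 TPM of Zfp36. The 3 cells of the lineage of L1210_49 held 4.72 to 5.05 TPM. These lineages were chosen after the values were seen, so that their ranges did not overlap is no test. The 4 cells of the lineage of L1210_4 ran from 0 to 3.94 TPM. Sisters differed on average by 1.00 in CD8+ T-cells (43 pairs), cousins by 1.27 (72 pairs) and unrelated cells by 1.71 (4541 pairs), on the ln scale. In L1210 cells these differences were 1.01 (38 pairs), 1.30 (62 pairs) and 1.74 (3140 pairs). Pearson's r over sister pairs was 0.638 and 0.563, and over cousin pairs 0.423 and 0.261, where pairs share cells. Holding detected genes fixed gave an ICC of 0.566 for CD8+ T-cells and 0.401 for L1210 cells, and holding hours fixed gave 0.542 and 0.430.

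Junb was the other member called in CD8+ T-cells (ICC 0.299, adjusted p = 0.0174, limma). Its 27 lineages ran from the 3 cells CD8_9 to CD8_11, at 0 to 55.66 TPM, to the 3 cells CD8_92 to CD8_94, at 178.72 to 489.33 TPM. The call was lost with detected genes as a covariate (adjusted p = 0.154), with a pseudocount of 0.1 (0.0626), in sister pairs alone (0.272) and by a Mann-Whitney U-test on pairs (0.210). Jun lay just outside (ICC 0.247, adjusted p = 0.0524, limma), and was called when any of 12 single lineages was left out and with detected genes as a covariate (adjusted p = 0.0409). Egr1 (0.191), Nr4a1 (0.213) and Ier2 (0.143) were not called. Without the lineage of CD8_92 to CD8_94 the ICC was 0.0894 for Egr1 and 0.00383 for Nr4a1, and without the lineage of CD8_21 that of Nr4a1 was 0.309 and was called (adjusted p = 0.0355, limma). Egr1 was called in 3 of 12 alternative settings. Dusp1, with an ICC of 0.056, was below the median of all genes (0.0902). Dusp1 was above 0 in some cells and at 0 in others in 22 of 27 lineages.

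In L1210 cells, Ier2 (ICC 0.379, adjusted p = 0.00338), Fos (0.328, adjusted p = 0.0102) and Jun (0.270, adjusted p = 0.0371, all limma) were called beside Zfp36. For Ier2, the lineage of L1210_10 ran from 0 to 25.83 TPM and the lineage of L1210_53 from 311.1 to 703.5 TPM. Both were chosen after the values were seen. Without the lineage of L1210_10, the ICC of Ier2 was 0.216 and its adjusted p was 0.0805. A Mann-Whitney U-test on pairs did not call Ier2 either (adjusted p = 0.164). Without the 1 library with 1610 detected genes, L1210_15, it was 0.535, above the 0.515 of Zfp36 in the same cells, and Dusp1 was called as well (ICC 0.266, adjusted p = 0.0427). Fos was above 0 in every cell of 5 lineages, at 0 in every cell of 9 and mixed in 10. It ran from 5.34 to 11.44 TPM over the 4 cells of the lineage of L1210_5 and was at 0 in all 4 cells of the lineage of L1210_9. The call of Fos was lost with a pseudocount of 10 TPM (adjusted p = 0.0841), with only lineages that held cousins (0.0721) and by the Mann-Whitney U-test on pairs (0.0609). Sisters both expressed Fos in 10 of 38 pairs, 1 of them did in 8 and neither in 20. The call of Jun was lost in 6 of 14 alternative settings and when any of 6 single lineages was left out, those of L1210_8, L1210_10, L1210_11, L1210_25, L1210_46 and L1210_53 (adjusted p up to 0.165). Junb (0.094), Atf3 (0.054) and Egr1 (-0.03) were not called. Junb was called with ranks (adjusted p = 0.031) and by the Mann-Whitney U-test on pairs (0.0421), and its ICC ran from 0.00836 without the lineage of L1210_8 to 0.207 without that of L1210_3. Whether the ICC of a member differed between the cell types was not tested.

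**Figure D5:**
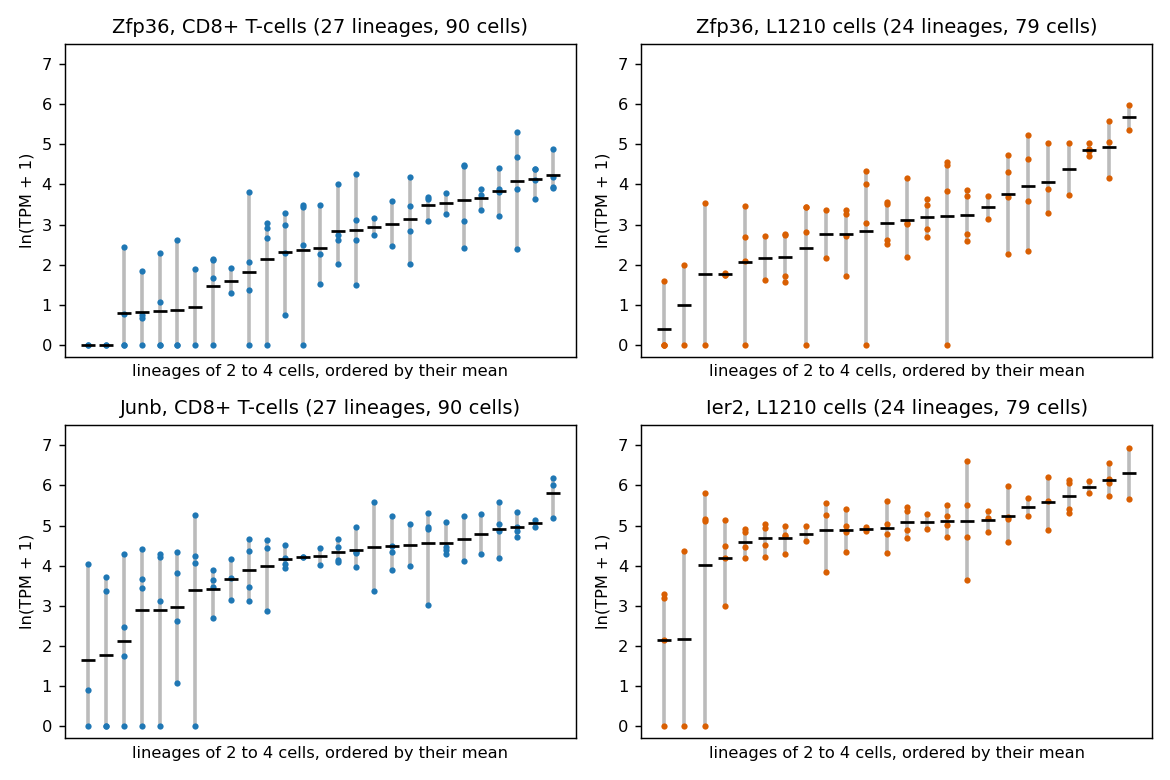
Cells of each lineage for Zfp36 in CD8+ T-cells and L1210 cells (top) and for Junb in CD8+ T-cells and Ier2 in L1210 cells (bottom), as ln(TPM + 1); each column is a lineage, ordered by its mean (black dash), each point a cell and each gray bar the range of the lineage. For Zfp36, the 4 L1210 cells at 108.85 to 150.6 TPM and the 3 at 4.72 to 5.05 TPM are lineages chosen after the values were seen.

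A pair of lineages, chosen after the values were seen, held the highest means of several members at once. The CD8+ T-cells CD8_92, CD8_93 and CD8_94, at 6.6 to 7.4 h since division, had the highest lineage mean of Fos, Junb, Egr1, Nr4a1, Ier2 and Atf3. Egr1 was 0, 66.13 and 180.11 TPM in these cells, Atf3 was 40.91, 125.59 and 33.79 TPM, and Nr4a1 was 43.7, 16.54 and 0.79 TPM. Ier2 was 110.64, 303.47 and 540.68 TPM in the same order. Jun stayed at 6.06, 16.98 and 13.08 TPM, within the range of other lineages, and Fosb was at 0 in all 3. The cells had 8951, 6742 and 6903 detected genes, above or near the median of 6862. Leaving this lineage out moved the difference of Nr4a1 between the cell types from 0.15 to 0.09 and changed no call in that comparison.

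The L1210 cells L1210_63 and L1210_74, at about 11.6 h since division, had the highest lineage mean of Fos, Junb, Egr1, Ier2 and Zfp36. Zfp36 was 396.72 and 211.38 TPM in these 2 cells, Ier2 was 1018.82 and 289.06 TPM, and Junb was 451.43 and 221.8 TPM. Fos was 51.02 and 19.15 TPM, and Nr4a1 was 0 in both. The 2 libraries held 8814 and 9119 detected genes, above the median of 8402.

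Other genes of the early response were called for likeness within lineages at varied rates. The share of all genes called was 12.9% for the T-cells and 13.4% for the leukemia line. With detected genes as a covariate these shares were 10.1% and 4.84%. Whether any list exceeded them was not tested. In CD8+ T-cells, 4 of 7 tested feedback phosphatases and ERK inhibitors were called, led by Dusp2 (ICC 0.527, adjusted p = 8.37e-06, limma), and 2 of 7 with detected genes as a covariate. None of 9 was called in L1210 cells, where Dusp2 had an ICC of 0.209 and an adjusted p of 0.0677 in limma. Of the upstream kinases and factors, 3 of 17 were called in CD8+ T-cells, among them Elk4 (0.385) and Map2k1 (0.358), and 1 of 17 in L1210 cells, Mkl1 (0.369), and with detected genes as a covariate 2 and 0. Of the other early response genes, 7 of 21 were called in CD8+ T-cells and 4 of 23 in L1210 cells, with Myc called in both (0.383 and 0.444), and with detected genes as a covariate 5 and 2. Among the AP-1 and bZIP partners, 3 of 11 were called in CD8+ T-cells and 2 of 10 in L1210 cells, with Atf4 called in both (0.295 and 0.252), and with detected genes as a covariate 3 and 0, so the L1210 call of Atf4 was lost. Nr4a3 was called in CD8+ T-cells (0.293) and Egr2 in L1210 cells (0.329), as 1 of 3 and 1 of 2 tested paralogs and corepressors. The call of Nr4a3 was lost with detected genes as a covariate and with ranks, and that of Egr2 with ranks.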

How the data were processed

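Single-cell libraries were made with Smart-Seq2 and sequenced as short paired reads. Per the labels, the submitters' processing notes name bcl2fastq, TopHat2, RSEM 1.2.3 and GenomeStudio and the build mm10. The deposited table holds TPM values, estimated by the authors with RSEM over UCSC gene models, for 23420 rows and 194 libraries. 27 gene names had been turned into dates by a spreadsheet and 4 rows carried repeated names. Doublets (4 CD8+, 2 L1210) and libraries with under 1000 genes above 0 TPM (5 of each type) were left out, which left 178 cells. The study states 1 L1210 cell fewer under the same filter, and the fit without the shallowest library is among the alternatives.

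Lineages were built from reciprocal sister and cousin labels. Values were ln(TPM + 1). Genes above 1 on that scale in more than 10% of cells were tested, 9997 genes of CD8+ T-cells and 10536 genes of the L1210 line. limma 3.58.1 (R 4.3.3) with a mean-variance trend was fitted to lineage means for cell type and hours, and to cells for lineage, with p-values adjusted by Benjamini-Hochberg over every gene in the fit and a threshold of 0.05. The study's Mann-Whitney U-test on cell pairs was an alternative, since each cell enters many pairs. The scripts were tested on simulated data. Lineages are the replicates in the fits of cell type and hours. The likeness test sets the spread between lineages against that of cells within lineages. The labels do not tie cells to mice, so no p-value measures the spread between mice. The members, the gene lists and the tests were chosen with earlier results of these data known. The named genes are the 10 members, at most 4 genes per list by lowest p, and the 5 genes of highest rho. Promoters are for up to 3 members of lowest p that had a promoter sequence, so Ier2 was passed over. Other list genes named were chosen after their values were seen. Gene positions are from the GENCODE annotation of GRCm38, the assembly of mm10, and promoters are from RefSeq, where 8 of the 10 members were found.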

Additional observations from a re-analysis of the deposited data

How the results depend on the processing

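For the cell types the members called were 5 to 8 of 10 in 14 alternative settings, 5 of 6 with genes in more than 50% of cells, and 6 to 7 when single lineages were left out, and for hours and the slope difference they were 0 in every setting and every leave-one-out fit. CD8+ T-cells and L1210 cells share title numbers that tie no cells together, so a fit with the number as a replicate block is only a formal alternative: it called 8 members, Junb being added (adjusted p = 0.0339). For likeness within CD8+ T-cell lineages, 2 members were called, but 1 with a pseudocount of 0.1 TPM (Zfp36), 4 with a pseudocount of 10 TPM (Jun, Junb, Egr1 and Zfp36) and 1 by the Mann-Whitney U-test on pairs (Zfp36), with 2 to 3 when single lineages were left out. Within L1210 lineages, 4 were called, but 2 with only lineages that held cousins (Zfp36 and Ier2), and 2 to 5 when single lineages were left out. The lowest was without the lineage of L1210_10. Over all genes, the calls of likeness in L1210 lineages fell from 1417 to 510 with detected genes as a covariate, to 519 with only lineages that held cousins and to 545 by the Mann-Whitney U-test, and from 1417 to 674 with at least 4000 detected genes, and ranged from 506 to 1696 when single lineages were left out (without those of L1210_8 and L1210_3). In CD8+ T-cells they were 1289, rising to 2197 with ranks and falling to 576 in sister pairs. The causes were not tested. Without the gene filter, Atf3, above 0 in 7 CD8+ T-cells, was also called in CD8+ T-cell lineages. Calls for hours in CD8+ T-cells numbered 2 to 25 of all genes over the alternatives, against 9. With no read counts in the expression table, 0 TPM could not be separated from a missed transcript.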

Other observations

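The heat shock genes, which answer a different stress pathway, were measured beside the members. Hspa1a and Hspa1b, the inducible Hsp70 genes, were above 0 in 6 and 5 of 97 CD8+ T-cells and in 2 and 7 of 81 L1210 cells, with highest values of 40.63 and 36.69 TPM. The constitutive chaperone gene Hspa8 was above 0 in every cell, with medians of 3634 and 3494 TPM. Of 4 tested genes, 3 were called for likeness within CD8+ T-cell lineages, Hsph1 (ICC 0.478), Hspa8 (0.313) and Hsp90aa1 (0.443), and 1 in L1210 lineages, Hsph1 (0.388). Among all genes, 12.9% and 13.4% were called. With detected genes as a covariate 4 and 0 were called, and with ranks 4 and 4. In the cell types' comparison only Hsph1 was called, as lower in CD8+ T-cells (difference -0.73, SE 0.258, adjusted p = 0.0118, limma). With detected genes as a covariate, 2 were called as higher instead and 0 as lower.

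Of 8 mitotic genes, 6 were called for likeness in each cell type, where 12.9% and 13.4% of all genes were called. Top2a (0.572) led in CD8+ T-cells and Plk1 (0.589) in L1210 cells. The ICC of Zfp36 in CD8+ T-cells (0.547) lay in the range of the mitotic genes.

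The doublets, left out of every comparison, held 5 to 7 members above 0 TPM in the 4 CD8+ doublets and 2 and 5 in the 2 L1210 doublets. Fos was 37.65 TPM in 1 CD8+ doublet and 0 in the other 3, and Fosb was 0 in all of them. The 10 libraries with under 1000 detected genes held 0 to 2 members, and the highest value was 40016.04 TPM of Ier2 in a library with 20 detected genes.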
